A study of Homo sapiens with 4 samples.

Results

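The genes described here are 10 regulators of the G1 phase of the cell cycle, taken by symbol from the 60675 genes counted in each library. They are the D-type cyclins CCND1, CCND2 and CCND3, the kinases CDK4 and CDK6, the CDK inhibitors CDKN1B (p27), CDKN2C (p18) and CDKN2D (p19), and the pocket proteins RB1 and RBL2 (p130). RNA-seq was performed on 4 libraries of LNCaP, an established human prostate cancer line that responds to androgen and was derived from a metastasis. All 4 came from cells kept in hormone-depleted serum and given 1 nM R1881, a synthetic androgen, for 72 h. The 2 control libraries received vehicle and the 2 treated libraries received 50 µM CPI-455, an inhibitor of the KDM5 family of histone H3 lysine 4 demethylases. Every comparison is therefore CPI-455 against vehicle in the presence of androgen, and no androgen-free group was analysed here. The methods call the replicates biological, but the labels do not say that they were separate cultures, so p-values measure the spread between these samples.

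D-type cyclins bind CDK4 and CDK6, and the active kinase phosphorylates RB1 and its relatives, which releases E2F transcription factors and lets cells enter S phase. INK4 proteins such as CDKN2C and CDKN2D bind CDK4 and CDK6 and block cyclin binding, while CDKN1B binds cyclin and CDK complexes and inhibits CDK2. RBL2 together with E2F4 or E2F5 and the MuvB complex keeps cell cycle genes silent in resting cells. In prostate cancer cells androgen is known to drive G1 progression, and CDK4/6 with its partners is a drug target.

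The vehicle libraries held 19623553 and 20690819 counted fragments and the CPI-455 libraries 9522920 and 5401588, and a level in a CPI-455 library rests on fewer counts. The treated libraries also differed in composition. MALAT1, a nuclear long non-coding RNA, took 0.114% and 0.0884% of counts with vehicle against 4.95% and 6.49% with CPI-455. All 13 protein genes of the mitochondrial genome were called lower, with a median log2 fold change of -4.27. Of 8 luminal prostate markers 5 were called lower, where 21.3% of all tested genes were. Of the 3 not called, KLK2 was higher (log2 fold change 0.56, edgeR FDR 0.0083) and TMPRSS2 and KRT18 were lower. The 8 markers summed to 834 to 912 CPM (counts scaled to the TMM-normalised library size) with vehicle and 375 to 427 with CPI-455. KLK3 alone had a mean of 380 CPM with vehicle and 121 with CPI-455. The 3 basal markers summed to at most 1.23 and the 3 immune and endothelial markers to at most 0.898 CPM in any library, and the basal keratin KRT5 had no count in any. The 3 stromal markers summed to 4.29 to 5.15 with vehicle and 7.72 to 10.2 with CPI-455, where COL1A1 was called higher and COL3A1 and DCN were near 0. The part of these shifts in the changes below was not tested. Levels are relative to the other RNA of a library, so less RNA per cell and fewer cells in a given phase of the cycle cannot be told apart.

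Expression of 5 of the 10 genes was lower with CPI-455 and none was higher by at least 2-fold. A gene was called when edgeR's quasi-likelihood test gave a Benjamini-Hochberg false discovery rate (FDR) below 0.05 over all genes tested and the change was at least 2-fold. All 10 genes were among the 17600 that passed the filter on low counts. The 5 that fell were CCND1, CCND3, CDK4, CDK6 and RB1, set against 21.3% of all tested genes called lower, 24.4% of the protein-coding ones and 42.4% of all tested genes called in either direction. The 0 called higher stand against 21% of all tested genes and 15.6% of the protein-coding ones, and DESeq2 also called 0. Without a fold threshold 6 genes were lower and 1, CCND2, was higher at an FDR below 0.05, and the same numbers had an unadjusted edgeR p below 0.05. Among all tested genes 32.8% were lower and 29.8% higher by FDR alone. The members' median log2 fold change, CPI-455 over vehicle, was -0.88, against -0.04 for all tested genes and -0.21 for protein-coding genes. The normalised counts of the groups did not overlap for 9 of the 10 genes, against 81.9% of all tested genes, of which 42.8% were lower and 39.1% higher with CPI-455.

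**Figure D1:**
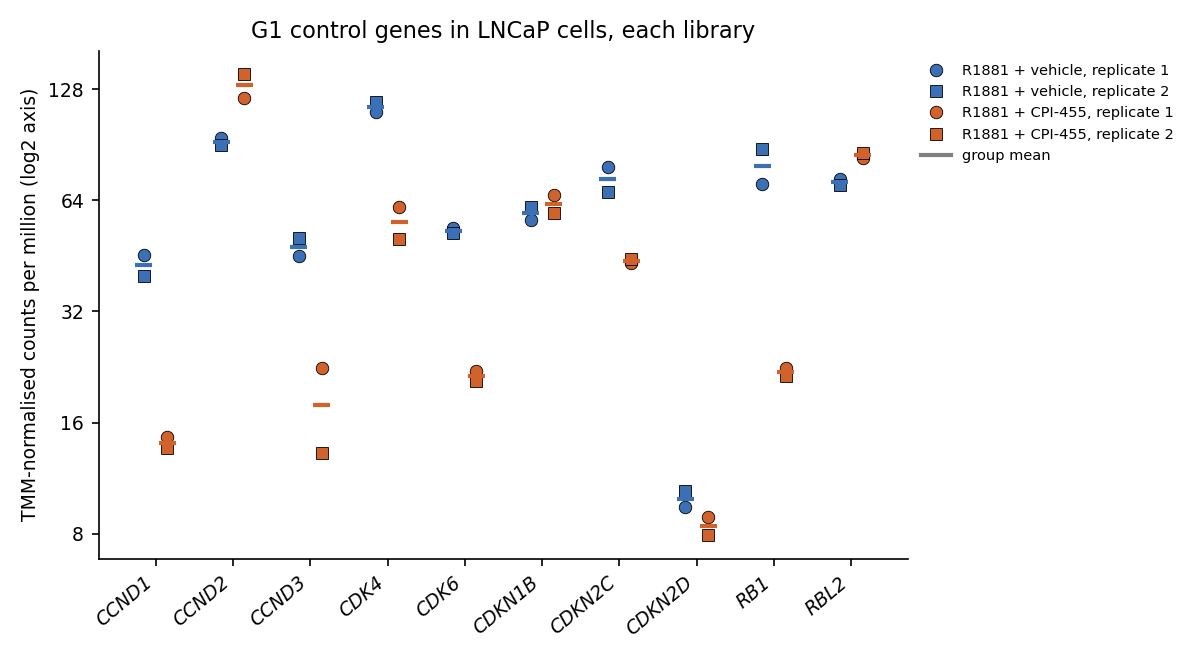
Level of each of the 10 genes in every library, in TMM-normalised CPM on a log2 axis, with circles for replicate 1, squares for replicate 2, blue for vehicle, orange for CPI-455 and bars for group means. CCND1, CCND3, CDK4, CDK6, CDKN2C and RB1 lie lower in both CPI-455 libraries, as does CDKN2D by a small margin, CCND2 and RBL2 lie higher, and CDKN1B overlaps.

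CCND1 and CCND3 fell, whereas CCND2 was higher by less than 2-fold. CCND1, a cyclin often amplified in cancer, lies on chromosome 11 at 69641087 to 69654474 of GRCh38. The gene shares 497 of 4830 exon bases with LTO1. Its 4 libraries held 961 and 873 counts with vehicle against 130 and 69 with CPI-455, which were 45.4 and 39.9 against 14.6 and 13.6 CPM. The treated libraries differed little from each other and lay far below both controls. Expression of CCND1 fell to 33.3% of the vehicle level (log2 fold change -1.59, SE 0.18, edgeR FDR 4.73e-05). CCND3, the D cyclin best known from lymphoid cells, lies on chromosome 6 at 41934933 to 42050357. It was measured at 45.1 and 50.6 CPM with vehicle and 22.4 and 13.3 CPM with CPI-455. Both treated libraries were below the controls but spread widely, and the change was -1.38 (SE 0.22, edgeR FDR 5.47e-04). That size depended on which treated library was used, from -1.87 without CPI-455 replicate 1 to -1.14 without CPI-455 replicate 2.

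CCND2, the third D cyclin, lies on chromosome 12 at 4273772 to 4305350 and was the 1 gene of the family higher by FDR. It was present at 94.1 and 90.2 CPM with vehicle and at 121 and 141 CPM with CPI-455, from 1080 and 712 counts in the treated libraries. Both treated libraries exceeded both controls. The increase to 142% of the vehicle level did not reach 2-fold (log2 fold change 0.50, 95% interval 0.23 to 0.78, edgeR FDR 0.00585). The FDR was 0.0515 without vehicle replicate 1 and 0.0948 without vehicle replicate 2, with the log2 fold change between 0.35 and 0.59 when any 1 library was left out. When a smooth trend across exon lengths and GC contents was subtracted in each library, the CCND2 change was 0.97.

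Transcripts of both kinases were reduced. CDK4, on the minus strand of chromosome 12 at 57747727 to 57756013, was measured at 111 and 118 CPM with vehicle and 61.4 and 50.2 CPM with CPI-455. The treated libraries were near 49% of the control level. The log2 fold change of CDK4 was -1.03 (SE 0.14, edgeR FDR 1.60e-04), close to the 2-fold limit. It missed that limit without CPI-455 replicate 2 (-0.94), with upper-quartile scaling (-0.85) and with a minimum of 10 counts in every library (-0.99). CDK4 also shares 1369 of its 3168 exon bases with TSPAN31 on the opposite strand, and fragments in the overlap were not counted for either gene. CDK6, on chromosome 7 at 92604921 to 92836594, shares 81 of 12260 exon bases with its antisense gene. It held 53.8 and 52.2 CPM with vehicle and 22.1 and 20.8 CPM with CPI-455, with little spread in either group. Expression of CDK6 fell to 40.6% of the vehicle level (log2 fold change -1.30, SE 0.15, edgeR FDR 6.92e-05). The length and GC trend reduced the CDK6 change to -0.81, which is less than 2-fold, with an edgeR FDR of 0.00119.

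The INK4 inhibitors did not pass the 2-fold threshold. CDKN2C, which binds CDK6 and CDK4, lies on chromosome 1 at 50960745 to 50974633. It was measured at 78.7 and 67.5 CPM with vehicle and 43.2 and 44.5 CPM with CPI-455, so the groups were apart. The log2 fold change of -0.74 (95% interval -1.06 to -0.42) had an edgeR FDR of 0.00148. CDKN2D, on chromosome 19 at 10566462 to 10569059, was the least counted of the 10 genes, at 200 and 228 counts in the controls and 79 and 40 in the treated libraries. Its levels of 9.45 and 10.4 CPM with vehicle and 8.86 and 7.91 CPM with CPI-455 were close together. The groups did not overlap, but the interval of the change included no change (log2 fold change -0.24, 95% interval -0.81 to 0.34, edgeR FDR 0.446). After removal of the length and GC trend the CDKN2D change was -0.91, with an edgeR FDR of 0.0117.

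Promoter sequence is shown for CDK4 and its inhibitor CDKN2C, chosen after a search of the family because both hold the E-box CACGTG, a word bound by MYC and related factors. RefSeq promoters on GRCh38.p14 were found for 8 of the 10 genes, with 14 start sites, and the 250 bases before each start were searched on both strands. Every window of RB1, CDK4, CDKN1B, CCND3 and RBL2 lies inside the annotated gene, so the bases before the annotated starts of these genes were not searched. Some windows of CDKN2C and CDK6 also lie inside the gene, among them that of the CDKN2C E-box 69 bases before its start. CACGTG, which reads the same on both strands, lay before at least 1 start of these 2 genes and of none of the other 6, in 3 of the 14 windows, and 6.34% of 35116 promoters of the same length hold it. The sites are shown 5′ to 3′ on the gene's strand with 12 bases on either side and the E-box in capitals.
CDK4 chr12:57752509-57752538: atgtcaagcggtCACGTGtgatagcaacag
CDK4 chr12:57752489-57752518: atagcaacagatCACGTGgctgccatcgcc
CDK4 chr12:57752394-57752423: atgggtggcggtCACGTGcccagaacgtcc
CDKN2C chr1:50960513-50960542: gattgtgcacctCACGTGgttagtcacaca
CDKN2C chr1:50970164-50970193: ttgctgaataatCACGTGtgaatcgagggg
The CDK4 E-boxes began 216, 196 and 101 bases before one start, so the first 2 windows overlap, and those of CDKN2C began 220 and 69 bases before 2 different starts. GC boxes (GGGCGG) were found in 8 of the 14 windows, from 6 genes, and in 42.6% of all promoters. CCAAT boxes were found in 6 windows, from 5 genes, and in 32% of promoters. None of the 14 windows held the E2F words TTTCCCGC, TTTGGCGC, TTTCGCGC or TTTGCCGC, found in 2.79% of promoters, or the FOXO word GTAAACA, found in 2.98%. Words of different kinds were counted independently where they overlapped. These matches describe the letters of the windows and were not tied to any change in level.

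CDKN1B, the inhibitor whose loss is common in prostate cancer, lies on chromosome 12 at 12715058 to 12722371 and shares no exon base with another gene. It was measured at 56.6 and 61.3 CPM with vehicle and 66.1 and 59.1 CPM with CPI-455. The groups overlapped. The log2 fold change of 0.09 (95% interval -0.21 to 0.39, edgeR FDR 0.583) was within the spread, and its sign turned with library totals alone (-0.10), without the low count filter (-0.065) and without CPI-455 replicate 1 (-0.015). A change of scaling moves all genes together: the median of all tested genes was -0.23 with library totals and 0.14 with upper-quartile factors. Relative to that median CDKN1B was at 0.13 with TMM, with library totals and with upper-quartile factors.

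Of the 2 pocket protein genes RB1 fell and RBL2 was not called. RB1, on chromosome 13 at 48303751 to 48481986, encodes the retinoblastoma protein. It held 1496 and 1930 counts with vehicle against 200 and 108 with CPI-455, equal to 70.7 and 88.2 against 22.4 and 21.4 CPM. Every treated library was far below every control. Expression of RB1 fell to 27.7% of the vehicle level, with a log2 fold change of -1.85 (SE 0.17, edgeR FDR 1.33e-05), and 9.51% of all tested genes had a lower log2 fold change. It stayed past the threshold in all 13 alternative analyses, with values from -2.04 to -1.27. The RB1 change was the largest of the 10 except with the length and GC trend removed, where CCND1 (-1.43) and CCND3 (-1.33) exceeded RB1 (-1.27), and with trend and block together. RBL2, on chromosome 16 at 53433977 to 53491649, shares 1331 of 7320 exon bases with AKTIP and another gene. It was measured at 73.2 and 70.6 CPM with vehicle and 83.2 and 86.1 CPM with CPI-455, higher in both treated libraries. The log2 fold change of 0.24 (95% interval -0.04 to 0.51, edgeR FDR 0.116) did not pass. Removing the length and GC trend raised the RBL2 value to 0.77, with an edgeR FDR of 2.00e-04.

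**Figure D2:**
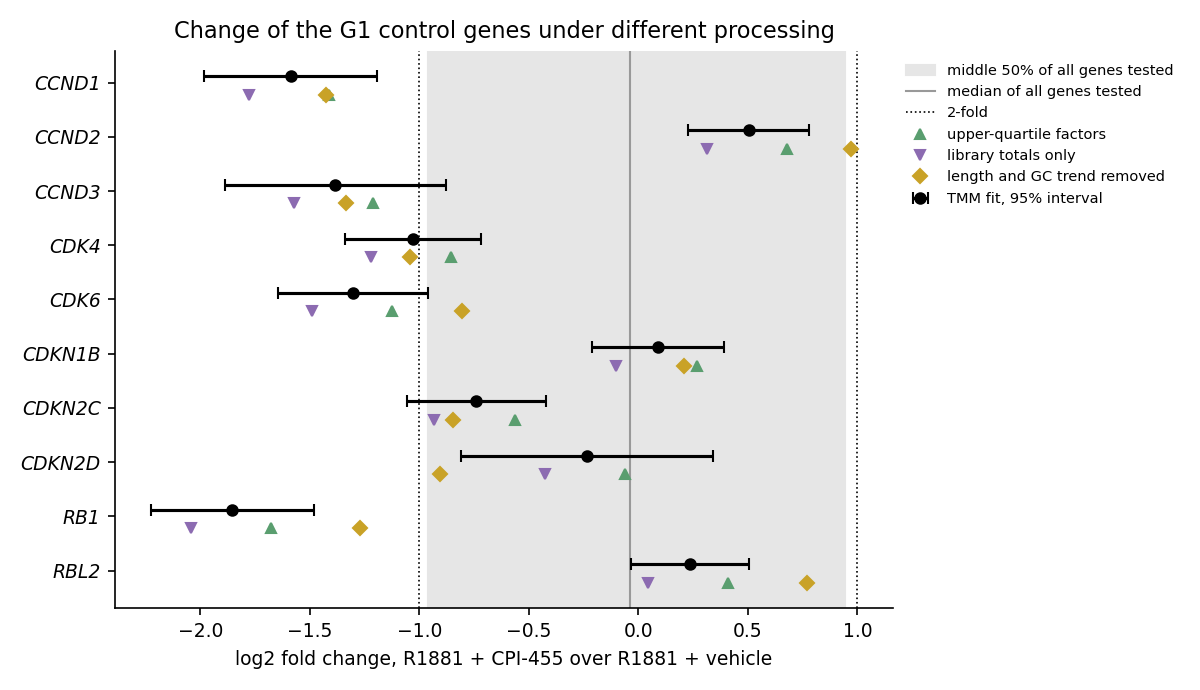
Log2 fold change of each gene, CPI-455 over vehicle, from the TMM analysis with its 95% interval, with coloured markers for other scalings, the length and GC trend and the middle 50% of all tested genes shaded. CCND1, CCND3, CDK4, CDK6 and RB1 lie left of the 2-fold line with TMM, CDK4 at -0.85 with upper-quartile factors and CDK6 at -0.81 with the trend removed lie inside it, and CDKN1B changes sign with library totals (-0.10).

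Levels of different genes were compared as fragments per kilobase of exon and library size (RPKM, means of 2 libraries), first over the full exon length. With vehicle CDK4 was highest at 36.2 ± 1.7 (SD, n = 2), followed by CDKN2C at 22.04 ± 2.39 and CDKN1B at 21.0 ± 1.2, which overlapped. CCND2 at 12.9 and RB1 at 12.9 also overlapped, then came RBL2 at 9.82, CCND1 at 8.83 overlapping CCND3 at 8.25, CDKN2D at 6.61 and CDK6 at 4.32. With CPI-455 CDKN1B was first at 22.3 ± 1.7 (SD, n = 2), CCND2 at 18.3 overlapped CDK4 at 17.6, and CDKN2C at 13.2 and RBL2 at 11.6 followed. CDKN2D stood at 5.58, and RB1 at 3.55, CCND3 at 3.08 and CCND1 at 2.92 overlapped their neighbours in that order, above CDK6 at 1.75. RB1 was thus in place 5 with vehicle and in place 7 with CPI-455, and CDK6 was last in both groups. Fragments in shared exon bases were not counted, so the full length understates genes such as CDK4. With exon bases shared with another gene left out of the length, CDK4 was first in both groups, at 63.7 with vehicle and 31.0 with CPI-455. CDKN1B was then second with CPI-455, at 22.3. By mean with CPI-455, RBL2 at 14.1 was then above CDKN2C at 13.2, and CCND1 at 3.26 above CCND3 at 3.09. The order of means with vehicle did not change.

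Ratios of levels within a library need no scaling between libraries, and they describe the balance within the family. The CCND1 share of the summed D-type cyclin level was 31.0% and 27.9% with vehicle against 12.7% and 11.4% with CPI-455. CCND2 made up 43.4% and 42.6% of that sum with vehicle against 71.1% and 79.4% with CPI-455, so it was the main D cyclin transcript in every library. The CCND3 share was 25.6% and 29.5% with vehicle against 16.2% and 9.22% with CPI-455. In contrast, CDK4 made up 88.8% and 89.8% of the CDK4 and CDK6 sum with vehicle against 91.5% and 90.4% with CPI-455, a difference of 1.61 percentage points. With 2 libraries against 2 an exact two-sided permutation test cannot give a p below 0.333, the value of each of these ratios.

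Inhibitor to kinase ratios were higher in both treated libraries than in both controls. CDKN1B over the sum of CDK4 and CDK6 was 0.512 and 0.524 with vehicle against 1.11 and 1.20 with CPI-455, a 2.23-fold difference. The INK4 level over the same sum was 0.763 and 0.655 with vehicle against 0.893 and 1.06 with CPI-455, a log2 difference of 0.46 that was 0.18 after removal of the length and GC trend. D-type cyclins over the kinases were 0.771 and 0.710 with vehicle against 1.13 and 1.41 with CPI-455. RBL2 over RB1 was 0.873 and 0.675 in the control libraries and 3.13 and 3.39 in the treated ones, a 4.25-fold difference. The sizes of these ratios depend on the length used. Fragments in shared exon bases were not counted, so the full length used above understates CDK4 and overstates ratios to the kinases. With exon bases shared with another gene left out, CDKN1B over the kinases was 0.305 and 0.311 with vehicle against 0.654 and 0.71 with CPI-455. The INK4 level over the kinases was then 0.45 and 0.39 with vehicle against 0.53 and 0.63 with CPI-455. D-type cyclins over the kinases were 0.48 and 0.44 against 0.68 and 0.86. CDKN1B, the INK4 level and the D-type cyclins thus each stayed below the kinase sum in every library. RBL2 over RB1 was 1.07 and 0.825 against 3.82 and 4.15. The difference was 2.21-fold for CDKN1B over the kinases and 4.25-fold for RBL2 over RB1. In all 4 ratios both treated libraries lay above both controls, and the exact permutation p was again 0.333.

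**Figure D3:**
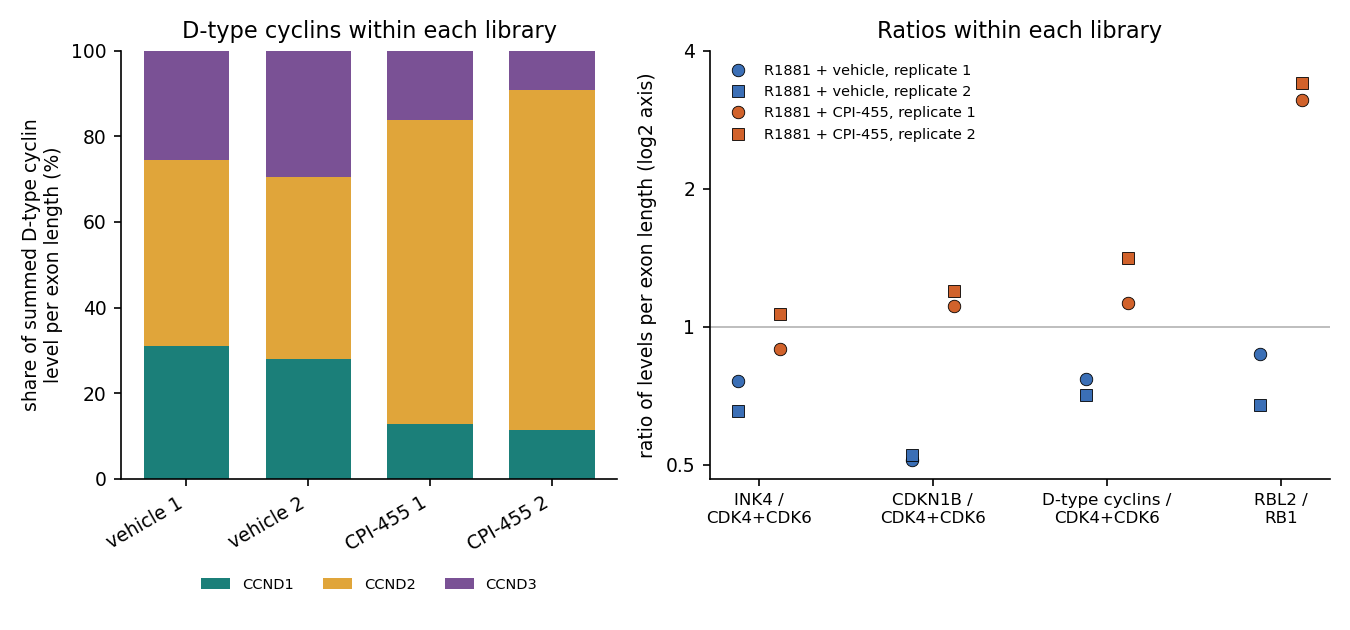
Left, stacked bars of the percentage of the summed per-length D-type cyclin level held by CCND1, CCND2 and CCND3 in each library; right, 4 ratios of per-length levels in each library on a log2 axis. CCND2 holds 71.1% and 79.4% with CPI-455, and RBL2 over RB1 is 3.13 and 3.39 with CPI-455 and 0.873 and 0.675 with vehicle. Lengths are full exon lengths, including bases shared with another gene, which understates CDK4.

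Beyond the 10 genes, 35 other genes of the pathway were examined, all of which were tested. Expression of 16 fell and 5 rose, and 14 were not called, where 21.3% of all tested genes were called lower and 21% higher. Among protein-coding genes 24.4% were called lower and 15.6% higher. These shares are also the background of the smaller groups below. The median log2 fold change of the 35 genes was -0.85, against -0.04 for all tested genes, and the groups did not overlap for 31 of the 35, against 81.9% of all tested genes. The number called lower was 10 with upper-quartile factors, 9 with the length and GC trend removed and 18 with library totals. Of all tested genes 17.6%, 18% and 26% were called lower in these settings, and 24.4%, 20.8% and 17.8% higher. The share of called pathway genes that fell was 76.2% with TMM, 64.3% with the trend removed and 81.8% with library totals. In the CDK2 arm, which acts after the D cyclins, 3 of 6 genes fell and none rose. CCNE1, the E cyclin that activates CDK2, was 33.6 ± 4.9 CPM with vehicle and 9.82 ± 1.02 CPM with CPI-455 (SD, n = 2; log2 fold change -1.76, edgeR FDR 7.30e-05). CDC25A, a phosphatase that activates CDKs, fell by 1.56 on the log2 scale, as are all such values below, and CCNE2, the second E cyclin, fell by 1.01. CCNE2 shares 1633 of 4397 exon bases with other genes and lost its call without vehicle replicate 2 (-0.93), without CPI-455 replicate 2 (-0.87), with upper-quartile factors (-0.83), with RLE factors (-0.99), with at least 10 counts in every library (-0.97) and with the trend removed (-0.57). CDK2 itself, the kinase that CDKN1B inhibits, had a log2 fold change of -0.08 (95% interval -0.35 to 0.19).

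The CDK-activating kinase, which phosphorylates the activation loop of CDK4 and CDK6, consists of CDK7, CCNH and MNAT1. With TMM the first 2 rose, against 21% of all tested genes and 15.6% of protein-coding genes called higher. CDK7, its kinase, rose from 12.2 ± 0.2 to 32.1 ± 5.5 CPM (SD, n = 2; log2 fold change 1.39, edgeR FDR 2.41e-04). CCNH, its cyclin, rose by 1.47. MNAT1, the assembly factor of the kinase, was 0.66 higher with an edgeR FDR of 0.00727, short of 2-fold. The MNAT1 value was 0.68 without vehicle replicate 1, 0.61 without vehicle replicate 2, 0.81 without CPI-455 replicate 1 and 0.45 without CPI-455 replicate 2. With the length and GC trend removed MNAT1 was called higher, at 1.08 (edgeR FDR 1.55e-04), and also with trend and block together. CDC37, which is no part of that kinase but the co-chaperone that delivers CDK4 to HSP90, rose from 136 ± 0.6 to 632 ± 43 CPM (log2 fold change 2.22, edgeR FDR 7.88e-07). None of the 4 genes fell.

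Among 11 genes for E2F and DP factors and RBL1, 6 fell and 1 rose. E2F7, an atypical E2F that represses E2F targets, had the largest change, from 98.7 ± 4.5 to 8.78 ± 1.23 CPM (SD, n = 2; log2 fold change -3.47, edgeR FDR 7.52e-07). RBL1 (p107), the third pocket protein, fell by 1.57 and E2F1, which RB1 binds, by 1.14. The call for E2F1 was lost with upper-quartile factors (-0.96). E2F4, a partner of RBL2, was measured at 104 ± 3.7 CPM with vehicle and 104 ± 6.7 CPM with CPI-455 (95% interval of the log2 fold change -0.27 to 0.27). E2F5, another partner of RBL2, rose from 10.8 ± 2.7 to 59.6 ± 4.1 CPM (log2 fold change 2.46, edgeR FDR 7.92e-06), and 1102 of its 5928 exon bases are shared with other genes.

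The MuvB complex joins RBL2 in resting cells, and 3 of its 6 listed genes fell and 1 rose. RBBP4, a histone-binding subunit that also binds RB1, fell by 1.14, and DYRK1A, the kinase that phosphorylates LIN52 and so assembles the complex, by 1.07. Both lost the call with the length and GC trend removed, RBBP4 at -0.61 and DYRK1A at -0.57, and with upper-quartile factors, at -0.96 and -0.90. RBBP4 shares 1706 of 9470 exon bases with SYNC. LIN52, which contacts RBL2, had a log2 fold change of -0.85. LIN9 fell by 1.39 and LIN37 rose by 1.15, both named after their values were seen. LIN37 shares 1522 of 2820 exon bases and lost its call without vehicle replicate 1 (edgeR FDR 0.0908) and without vehicle replicate 2 (0.0892), and was short of 2-fold with library totals (0.95), without a filter (0.99) and with the trend removed (0.92).

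Of 8 genes that control the turnover of cyclins and inhibitors 4 fell and none rose. GSK3B, a kinase that marks cyclin D1 for export and degradation, went from 60.2 ± 4.0 to 16.3 ± 0.7 CPM (SD, n = 2; log2 fold change -1.88, edgeR FDR 9.97e-06). SKP2, the F-box protein that targets CDKN1B protein for degradation, fell by 1.31 and AMBRA1, the receptor that targets D-type cyclins, fell by 1.08. With the length and GC trend removed SKP2 was at -0.95 and AMBRA1 at -0.77, and AMBRA1 was also short of 2-fold with upper-quartile factors (-0.90) and without CPI-455 replicate 2 (-0.9991). CUL1, the scaffold of the SKP2 ligase, fell by 1.33 and was named after its value was seen. CKS1B, the cofactor of SKP2, was 0.49 higher and short of 2-fold (95% interval 0.23 to 0.75, edgeR FDR 0.00497).

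E2F targets here are genes for DNA replication that are released when RB1 is phosphorylated. Of 17 tested, 4 fell, 1 rose and 12 were not called, against 21.3% of all tested and 24.4% of protein-coding genes called lower, so the share that fell was near the background. The median log2 fold change was -0.50, against -0.21 for protein-coding genes. At an FDR below 0.05 without a fold threshold 11 were lower and 2 higher, against 32.8% and 29.8% of all tested genes. CDC6, a replication licensing factor, fell from 146 ± 4.9 to 43.6 ± 1.0 CPM (SD, n = 2; log2 fold change -1.74, edgeR FDR 3.54e-06). TYMS, which makes thymidylate for DNA synthesis, fell by 1.62, and shares 648 of 2470 exon bases with other genes. RRM1, a subunit of ribonucleotide reductase, fell by 1.31, and was at -0.94 with the trend removed. MCM2, a subunit of the MCM helicase, fell by 1.03 and missed 2-fold without vehicle replicate 2 (-0.97), without CPI-455 replicate 2 (-0.92), with upper-quartile factors (-0.86), with at least 10 counts in every library (-0.99) and with the trend removed (-0.99). MCM5, another subunit of that helicase, rose by 1.07 and missed 2-fold without CPI-455 replicate 1 (0.91), without vehicle replicate 2 (0.9964), with library totals (0.88) and without a filter (0.91). Of the called E2F targets 4 fell and 1 rose with TMM (80% fell). With upper-quartile factors 3 fell and 2 rose (60%), and with library totals 5 fell and 0 rose (100%). Of all tested genes 21.3% were called lower and 21% higher with TMM. These shares were 17.6% and 24.4% with upper-quartile factors and 26% and 17.8% with library totals.

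**Figure D4:**
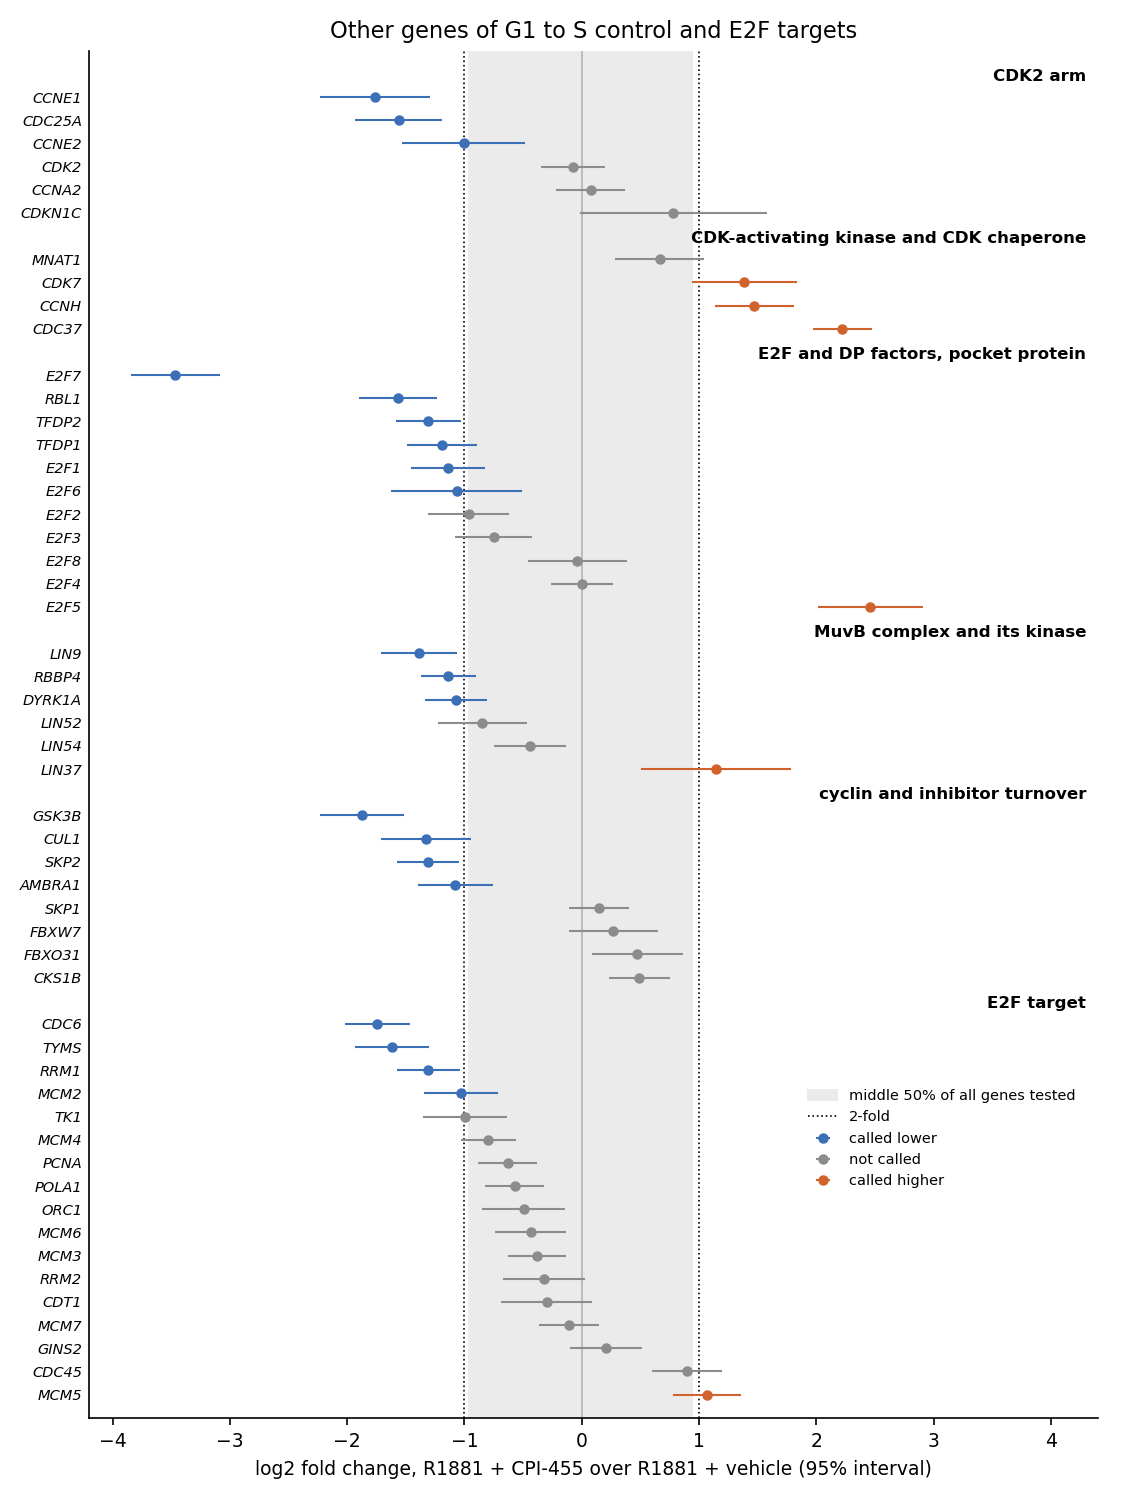
Log2 fold change, CPI-455 over vehicle, with its 95% interval for 35 other genes of G1 to S control and 17 E2F targets, grouped by role, with the middle 50% of all tested genes shaded. Blue marks the genes called lower and orange those called higher, from E2F7 at -3.47 to E2F5 at 2.46, and no gene of the CDK-activating kinase and chaperone group lies left of 0.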

How the data were processed

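RNA-seq was analysed in 2 libraries of LNCaP cells given R1881 and vehicle and 2 given R1881 and CPI-455, grouped by the sample titles. The deposited files hold raw fragment counts per gene, which the authors made by trimming with Trim Galore, aligning to GRCh38 with STAR and counting with featureCounts 1.5.0-p1 on Ensembl release 83. The file headers show that strand was not used and that fragments overlapping several genes were left out, so overlapping and antisense genes are measured less surely. RNA selection and library stranding were not given in the sources used here.

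Counts were compared with edgeR 4.0.16 in R 4.3.3 (TMM factors, filterByExpr with a minimum of 10 counts, glmQLFit and glmQLFTest, no covariates) over 17600 genes, with Benjamini-Hochberg adjustment. Genes with an FDR below 0.05 and at least a 2-fold change were called. CPM were scaled by edgeR, RPKM also by exon length, and the exact permutation test was two-sided. The smallest level that 3 counts can show was 0.142 and 0.137 CPM with vehicle and 0.337 and 0.593 CPM with CPI-455, for counting error only. The code was also run on simulated counts in which few genes changed and RNA composition was otherwise equal between groups. That setting differs from these data, so it cannot show how scaling and calls behave under a wide shift in composition.

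The 10 genes and all lists were chosen with earlier results of these data known. All 10 are named; of the other lists, in each direction the 4 with the largest change among those called and up to 3 genes per group that act directly on 1 of the 10. Alternatives were RLE, upper-quartile and library total scaling, no filter, at least 10 counts in every library, DESeq2 1.42.0, a replicate block, a length and GC trend (mgcv 1.9.3) with and without the block, each library left out, and, for ratios, no division by length. Exon length without bases shared with another gene was added after seeing the data. Symbols were matched for 56558 genes. Some genes are not reported here.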

Additional observations from a re-analysis of the deposited data

How the results depend on the processing

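The number of the 10 genes called lower was 4 or 5 and the number called higher 0 in all 13 alternatives. Of the 130 fold changes of single genes under them, 122 kept direction and call, 5 lost the call (CDK4 in 3, CDK6 in 2) and 3 changed sign, those of CDKN1B, at -0.10 with library totals, -0.065 without a filter and -0.015 without CPI-455 replicate 1 (-0.015 to 0.12 when a library was left out). Other pathway genes called lower numbered 16, and 10 with upper-quartile factors and 9 with the length and GC trend removed. They numbered 9 with the trend and the replicate block together, 18 with library totals and 18 without a filter. Of all tested genes 21.3% were called lower with TMM, 17.6% with upper-quartile factors and 18% with the trend removed. That share was 17.8% with trend and block, 26% with library totals and 13.6% without a filter. Called higher were 21% of all tested genes with TMM, 24.4% with upper-quartile factors, 17.8% with library totals and 9.92% without a filter. E2F targets called higher numbered 1, and 2 with upper-quartile factors, 0 with library totals and 0 without a filter, and 0 to 1 when a library was left out (0 without vehicle replicate 2 or without CPI-455 replicate 1). The CCND1 share difference of -17.4 percentage points was -14.65 without division by length and -19.3 with the trend removed, the INK4 to CDK4/6 log2 difference was 0.18 and that of CDKN1B to CDK4/6 was 1.24 with the trend removed, against 0.46 and 1.16. Length without shared bases, added after seeing the data, gave -18.4, 0.45 and 1.15. The cause of these differences was not tested.

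Replicate numbers 1 and 2 recur in the labels of both groups, and nothing else pairs the libraries. Deviations of same-numbered libraries correlated at 0.05. With the replicate number as a block, 5 of the 10 genes and 16 other pathway genes were called lower, 5 pathway genes higher, and E2F targets 5 lower and 1 higher. With a library left out, the lone library is assumed to vary like the other group. With 5401588 counts in the smaller CPI-455 library, low genes such as CDKN2D have wide intervals.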
